A study of Tupaia belangeri with 15 samples.

Results

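RPGRIP1 and 8 further genes of the photoreceptor cilium (RPGRIP1L, RPGR, CEP290, NPHP4, RP1, RP1L1, EYS and PROM1) were followed in single-nucleus RNA libraries of the tree shrew (TS, Tupaia belangeri) retina. These 9 genes were taken by name from the 83605 features of the TS annotation. RPGRIP1 was picked because its level was lower in senile rods, so its stage values in rods are given as a description without a test. The 15 libraries came from retinas frozen after dissection, 5 from infant, 5 from mature and 5 from senile animals, with no treatment, genetic change or strain named. Infant and mature animals were kept at a university animal centre and senile animals were bought from a zoological institute, so the source and the senile stage cannot be told apart. Reads were counted by unique molecular identifiers (UMIs), and the libraries held between 13429873 and 58734300 UMIs. Of 119765 nuclei that passed the filters, 57506 were assigned to 9 classes by marker genes, none of which is among the 9 genes. The classes were rods (1020 nuclei), cones (15369), bipolar cells (BCs, 19545), horizontal cells (HCs, 830), amacrine cells (ACs, 7888), retinal ganglion cells (RGCs, 3873), Müller cells (6940), astrocytes (1201) and microglia (840).

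The classes were set by their markers, so the marker levels describe the assignment and do not check it. The summed rod markers reached 3862 ± 876 CPM (UMIs of a gene per 1000000 UMIs of its class; SD, n = 14 retinas) in rods and 30.1 ± 6.56 CPM (n = 15) in cones. The summed cone markers reached 8937 ± 835 CPM in cones and 498 ± 191 CPM in rods. SAG, the rod arrestin, took no part in the assignment and was at 3423 ± 790 CPM in rods and 213 ± 57.6 CPM in cones. PDE6G and CNGA1, defining markers of rods, were at 0 UMIs in every library, and the rods rest on the other markers of their list. Senile 1 gave 1 rod and was left out of all values for rods, which therefore rest on 14 retinas with 29 to 135 rods each. The libraries shared at most 30 barcodes with each other.

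The outer segment of a rod or cone is a modified cilium, joined to the cell body by a narrow connecting cilium through which all of its proteins pass. The connecting cilium corresponds to the transition zone of other cilia, and a complex of scaffold proteins there ties the ciliary membrane to the microtubules. Defects in these genes are known causes of inherited blindness, among them Leber congenital amaurosis and retinitis pigmentosa. Many are used by every ciliated cell, whereas RPGRIP1, RP1, RP1L1 and EYS are known mainly from photoreceptors, and PROM1 also marks stem cells and epithelia.

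RPGRIP1 was highest in cones and rods among the 9 classes. RPGRIP1 (TSDBGID.21826) encodes the scaffold that anchors the RPGR protein in the connecting cilium. In cones its level was lowest at 295 CPM, had a median of 383 CPM and was highest at 517 CPM over 15 retinas. In rods the corresponding values were 97.9, 307 and 422 CPM over 14 retinas. In the other 7 classes the mean over retinas lay between 4.78 CPM in RGCs and 17.8 CPM in microglia and no retina exceeded 79.7 CPM, below every rod and cone value. Cones were compared with the mean of the other 7 classes by edgeR's quasi-likelihood test with Benjamini-Hochberg adjustment, the retina as a block, and RPGRIP1 was 6.25 ± 0.12 higher on the log2 scale (SE, adjusted p = 6.64e-84). Rods stood 5.52 ± 0.18 higher by the same fit, given without a test.

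**Figure D1:**
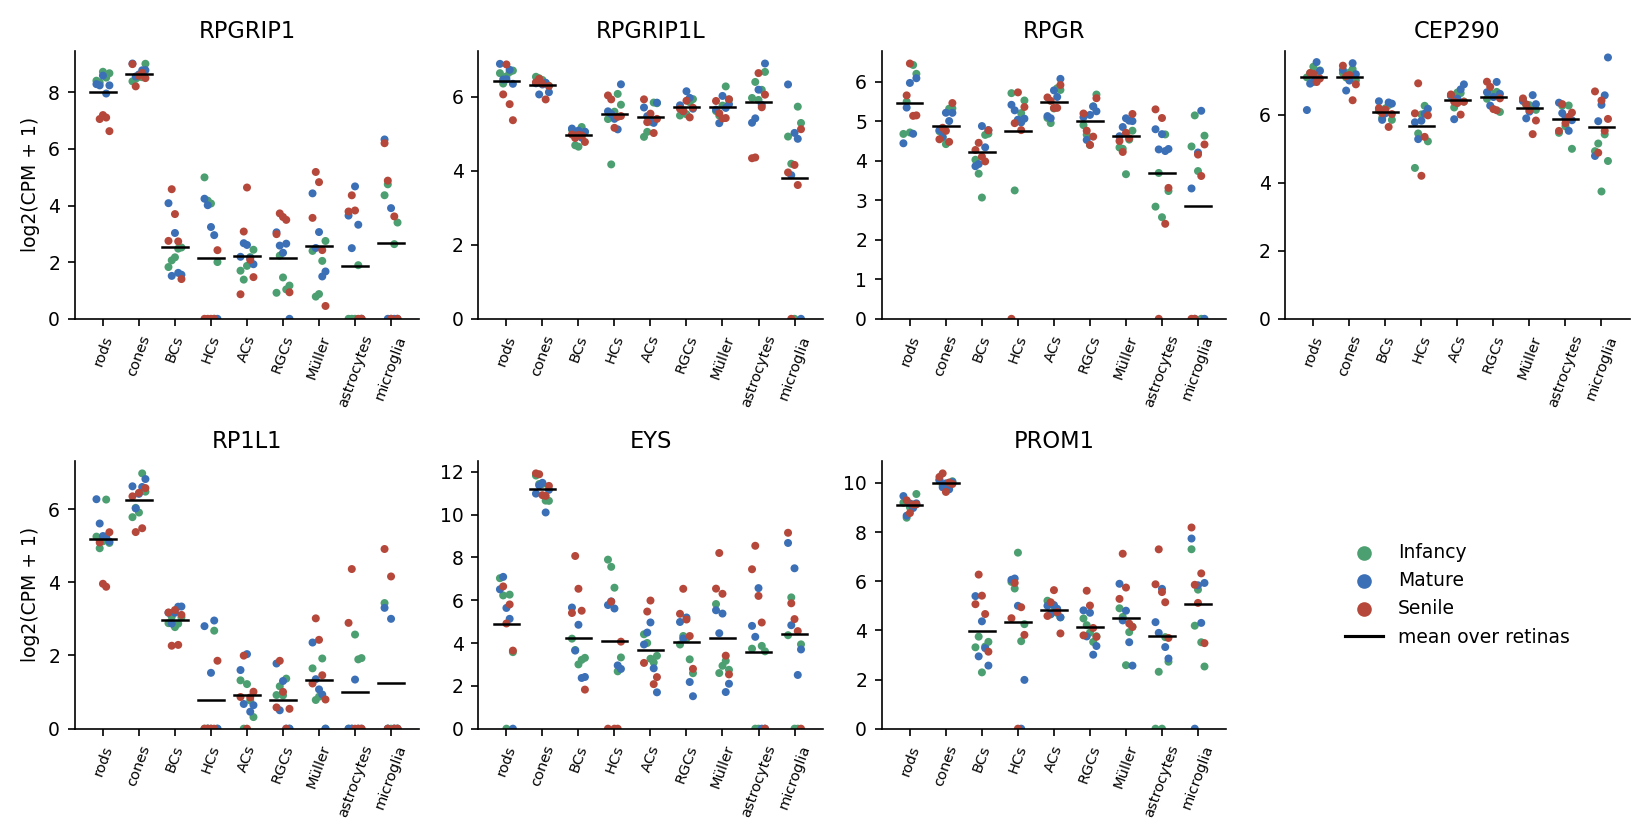
Levels of the 7 genes with enough UMIs in 9 classes; the vertical axis is log2(CPM + 1), each point is the summed nuclei of a class in 1 retina, coloured by stage, and black bars are means of these values over retinas. RPGRIP1, RP1L1 and PROM1 stand high in rods and cones, EYS stands high in cones, and RPGRIP1L, RPGR and CEP290 are found in every class.

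In cones, 7 of the 7 genes that could be tested were higher than the mean of the other 7 classes. RPGR was among them, although ACs, HCs and RGCs had higher RPGR means than cones. Of all genes tested, 41.7% were higher and 82.2% passed the test in either direction. With RPGRIP1 set aside, 5 of the 6 tested genes were higher in rods than the mean of the other classes, against 23.2% of all genes tested. NPHP4 and RP1 had too few UMIs for a test.

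The other members of the RPGR complex were spread over all classes. RPGRIP1L (TSDBGID.15833), the relative of RPGRIP1 at the transition zone of most cilia, averaged 88.1 ± 22.4 CPM in rods, 79.7 ± 8.93 CPM in cones and between 24.4 and 63.8 CPM elsewhere. It was 1.01 ± 0.07 higher on the log2 scale in cones than in the other classes (adjusted p = 2.70e-29) and 0.86 ± 0.11 higher in rods (6.19e-11). Outside photoreceptors the class means of RPGRIP1 were 4.78 to 17.8 CPM.

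RPGR (TSDBGID.19526), the regulator of protein entry that RPGRIP1 holds in place, averaged 48.0 ± 23.0 CPM in rods and 45.3 ± 11.1 CPM in ACs, a pair that did not differ beyond its spread (exact sign-flip test over retinas, adjusted p = 0.905 over 80 pairs of neighbouring classes). Its level in cones was 29.4 ± 7.45 CPM, after rods, ACs, HCs and RGCs in the order of means. Cones nevertheless stood 0.41 ± 0.08 above the mean of the other classes on the log2 scale (edgeR, adjusted p = 2.46e-06) and rods 0.84 ± 0.14 (1.48e-07).

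CEP290 (TSDBGID.1939), which links the microtubules of the transition zone to its membrane, had nearly the same mean in rods and cones. It averaged 140 ± 27.3 CPM in rods and 139 ± 25.3 CPM in cones, and RGCs came next at 93.0 ± 18.0 CPM. Cones exceeded RGCs in 15 of 15 retinas (exact sign-flip test, adjusted p = 0.00109, the smallest value this test gave). Against the mean of the other classes CEP290 was 1.15 ± 0.06 higher in cones (edgeR, log2, adjusted p = 1.39e-39) and 0.91 ± 0.09 higher in rods (1.14e-16).

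NPHP4 encodes a scaffold that works with RPGRIP1 and RPGRIP1L at the transition zone. The feature of that name (TSDBGID.7526) held 0 UMIs in rods, which allows a level of up to 0.926 CPM over the summed rods, and 20 UMIs in cones. A second feature, NPHP4li1 (TSDBGID.7890; "li" marks further copies of a gene in the annotation), held 48066 UMIs over all barcodes against 90 for NPHP4. NPHP4li1 was found in every class, highest in ACs at 142 ± 20.1 CPM, followed by cones at 120 ± 9.60 CPM and rods at 108 ± 36.5 CPM. ACs exceeded cones in 12 of 15 retinas (exact sign-flip test, adjusted p = 0.00946), and cones and rods did not differ beyond their spread (0.182).

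RP1 and RP1L1 are microtubule-associated proteins of the outer segment axoneme. RP1 (TSDBGID.8574) held 0 UMIs in rods and 0 UMIs in cones, limits of 0.926 and 0.0403 CPM, and 10 of its 17 UMIs lay in Müller cells. An antisense feature at the gene, RP1-AS-3, held 33 UMIs in rods, 0 to 17.3 CPM, and 75 UMIs in cones, 0 to 3.20 CPM. RP1L1 (TSDBGID.14673) reached 79.3 ± 24.6 CPM in cones, 38.7 ± 18.1 CPM in rods and 7.02 ± 1.62 CPM in BCs, with means of at most 4.77 CPM in the other classes. Cones exceeded rods and rods exceeded BCs in 14 of 14 retinas (exact sign-flip test, adjusted p = 0.00109 for each pair). RP1L1 was 5.39 ± 0.10 higher in cones than in the other classes (edgeR, log2, adjusted p = 3.53e-85) and 4.11 ± 0.22 higher in rods (4.63e-36). RP1L1 thus stood out in both photoreceptors, whereas RP1 was not detectable there at this depth. The sources used here do not say whether counting used strand, so reads of a gene and its antisense feature cannot be told apart.

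PROM1 (TSDBGID.26184) encodes prominin-1, a membrane protein of the forming outer segment discs. It averaged 1021 ± 139 CPM in cones and 552 ± 103 CPM in rods, with 18.5 to 70.4 CPM in the other classes. The lowest cone value, 794 CPM, lay above the highest rod value, 749 CPM. PROM1 was 5.55 ± 0.11 higher in cones than in the other classes (edgeR, log2, adjusted p = 2.17e-81) and 4.46 ± 0.15 higher in rods (6.96e-57).

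EYS (TSDBGID.20482) encodes a secreted protein of the matrix and the ciliary region of photoreceptors, and its cone values lay above those of every other class. Its level in cones was lowest at 1095 CPM, had a median of 2586 CPM and was highest at 3879 CPM. In rods it ranged from 0 to 135 CPM with a median of 51.8 CPM, close to microglia (94.2 ± 168 CPM), astrocytes (54.9 ± 99.8 CPM), HCs (52.3 ± 71.8 CPM) and Müller cells (44.7 ± 74.8 CPM). Rods did not differ beyond the spread from microglia (exact sign-flip test, adjusted p = 0.442) or astrocytes (0.104), whose own spread was wide, and the part of RNA from other cells in the EYS counts of rods was not tested. Cones were 6.92 ± 0.17 higher than the other classes (edgeR, log2, adjusted p = 1.22e-73). In rods the difference from the other classes was 0.87 ± 0.40 and missed the threshold (0.0560). It passed when Mature 3, Senile 2 or Senile 3 was left out, with values of 0.99, 1.02 and 0.92. Over all fits with 1 retina left out, the difference ran from 0.57 to 1.02.

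Which of these genes differ between rods and cones was asked within the 14 retinas that gave both classes. Of 9074 genes tested by edgeR with the retina as a block, 42.8% passed at an adjusted p of 0.05, 20.6% higher in rods and 22.3% lower. RPGRIP1 set aside, 4 of the 6 tested genes passed, with RPGR higher in rods and RP1L1, EYS and PROM1 lower. The median over these 6 genes was -0.51 on the log2 scale, and over all genes tested -0.01.

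RPGR was 0.55 ± 0.16 higher in rods (log2, adjusted p = 0.00552), with 48.0 ± 23.0 CPM in rods and 29.9 ± 7.46 CPM in cones of the same retinas. It was lower in rods in 4 of 14 retinas, and the differences of single retinas ran from -0.33 to 1.71. The rods of single retinas held 3 to 40 RPGR UMIs, so the counting error of each rod value is large. PROM1 was 0.97 ± 0.07 lower in rods (7.56e-12), RP1L1 1.17 ± 0.13 lower (1.99e-08) and EYS 5.63 ± 0.23 lower (9.08e-18). These 3 genes were lower in the rods of 14 of 14 retinas. RPGRIP1L differed by 0.08 ± 0.11 (0.597) and CEP290 by -0.06 ± 0.10 (0.675), both less than the spread between retinas. NPHP4li1 differed by -0.22 ± 0.11 and missed the threshold (0.0987).

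**Figure D2:**
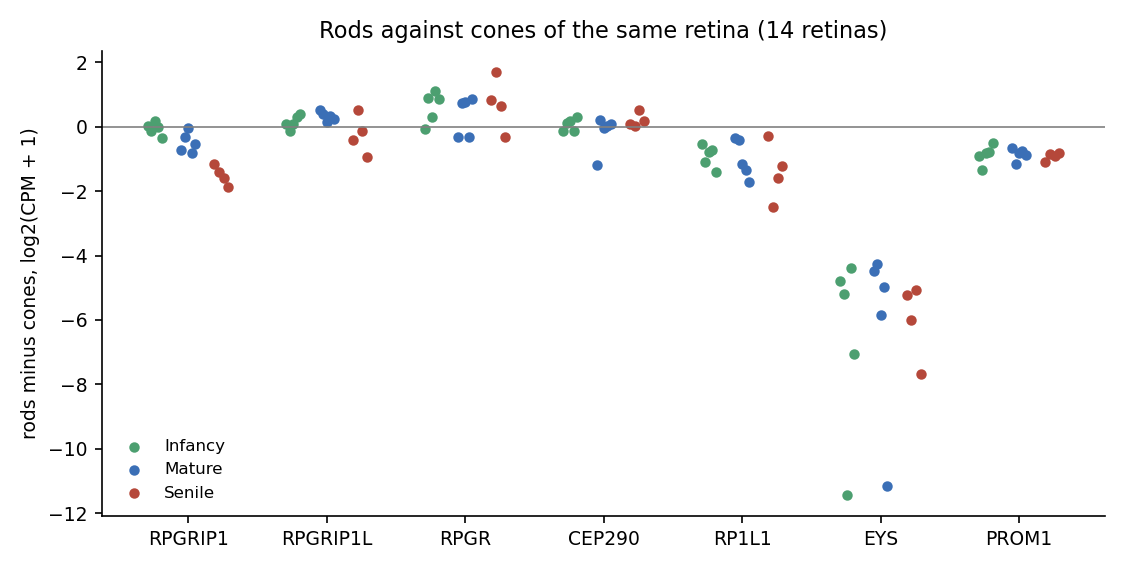
Difference between rods and cones of the same retina for 7 genes on the log2(CPM + 1) scale; each point is 1 of 14 retinas, coloured by stage, and the grey line marks no difference. PROM1, RP1L1 and EYS lie below the line in every retina, and RPGRIP1 lies near it in infancy, with a mean of -0.05, and at -1.50 in senile retinas.

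The difference of RPGRIP1 between rods and cones was also read by stage, as a description. In the 5 infant retinas the rods minus cones difference on the log2(CPM + 1) scale was 0.02, -0.13, 0.18, -0.01 and -0.33, and it averaged -0.05 ± 0.19 (SD). In mature retinas it was -0.73, -0.31, -0.04, -0.82 and -0.54, with a mean of -0.49 ± 0.32. The 4 senile retinas gave -1.15, -1.39, -1.58 and -1.87, with a mean of -1.50 ± 0.30. Infant rods and cones thus held nearly the same level of RPGRIP1, and in senile retinas the 2 classes lay apart in every retina. Over all 14 retinas RPGRIP1 was 0.61 ± 0.13 lower in rods, a value that contains the senile rods by which the gene was picked and is given without a test. PROM1 had mean differences of -0.87, -0.85 and -0.92 in infant, mature and senile retinas, and RP1L1 of -0.91 ± 0.35 in infant and -1.39 ± 0.91 in senile retinas. Whether these differences themselves differed between stages was not tested.

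The annotation holds 3 EYS features with neighbouring identifiers, and they differed in how they were divided between rods and cones. EYSli1 (TSDBGID.20483) followed EYS, with 1500 ± 663 CPM in cones and 30.2 ± 21.6 CPM in rods, 5.83 ± 0.17 lower in rods (edgeR, log2, adjusted p = 6.48e-21). EYSli2 (TSDBGID.20484) reached 1212 ± 312 CPM in cones and 630 ± 203 CPM in rods, a difference of -1.02 ± 0.13 (1.17e-07). Microglia held EYSli2 at 456 ± 391 CPM, which did not differ beyond the spread from rods (exact sign-flip test, adjusted p = 0.106), and BCs at 128 ± 44.7 CPM. In rods EYSli2 ranged from 439 to 1198 CPM, so that it was high in both photoreceptors while EYS and EYSli1 were high in cones.

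EYSli2 made up 91.7% ± 6.67 of the UMIs of EYS and EYSli2 together in rods (SD, n = 14), 33.5% ± 4.27 in cones (n = 15) and 82.7% ± 15.6 in BCs. The lowest rod value, 79.8%, lay above the highest cone value, 41.7%. In nuclei thinned to 1000 UMIs each, 52.4% of infant, 39.8% of mature and 44.5% of senile rods held an EYSli2 UMI, and 1.58%, 1.92% and 0.455% held an EYS UMI. At the same depth ACs held EYSli2 in 1.39%, 1.12% and 1.40% of nuclei and BCs in 12.8%, 8.70% and 11.3%. How reads were divided among the 3 features is not given in the sources used here, and a share of reads that fit more than 1 of them was not tested.

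**Figure D3:**
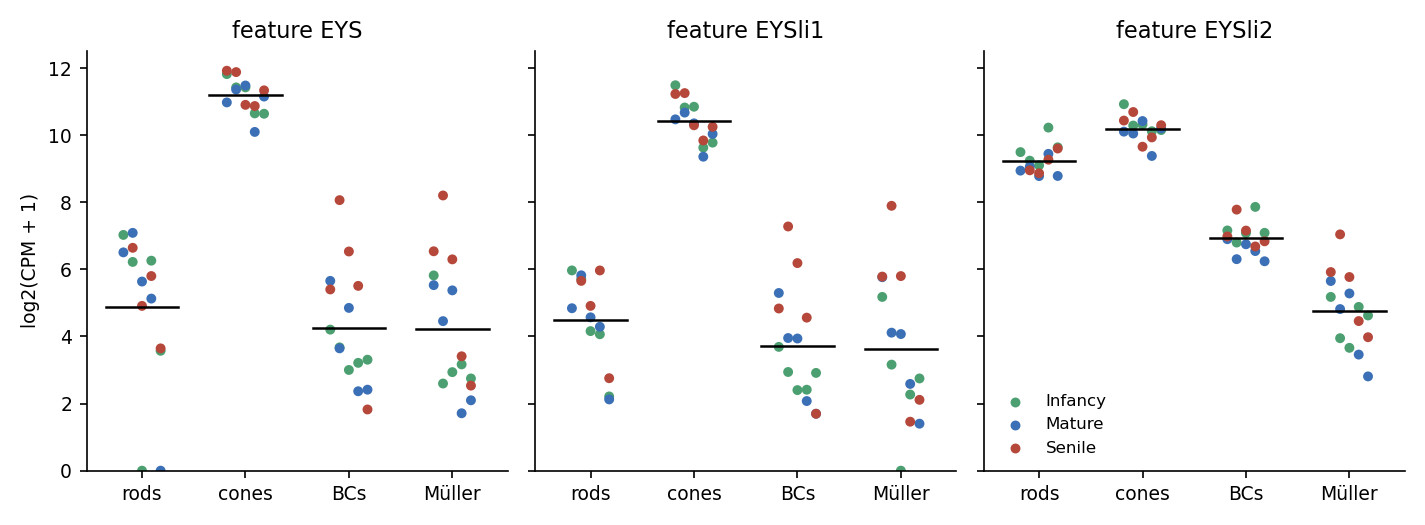
Levels of EYS, EYSli1 and EYSli2 in rods, cones, BCs and Müller cells as log2(CPM + 1); each point is 1 retina, coloured by stage, and black bars are means of these values. EYS and EYSli1 are high in cones, while EYSli2 averages 630 CPM in rods and 1212 CPM in cones.

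RPGRIP1 by stage in rods is the pattern for which the gene was picked. The rods of the 5 infant retinas held 339, 324, 422, 366 and 407 CPM, a mean of 372 ± 42.3 CPM (SD). Those of the mature retinas held 312, 302, 384, 247 and 302 CPM, with a mean of 309 ± 48.7 CPM. The 4 senile retinas with rods held 132, 146, 137 and 97.9 CPM, with a mean of 128 ± 20.9 CPM. Every senile value lay below every infant and mature value, and infant and mature values overlapped. The senile values rest on 8, 10, 20 and 17 UMIs of RPGRIP1. Summed over retinas, 489 infant, 489 mature and 55 senile UMIs gave 381, 325 and 122 CPM, with exact Poisson 95% intervals of 348 to 416, 297 to 355 and 92.3 to 159 CPM, which cover counting error only.

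The fitted difference in rods was -1.65 on the log2 scale between senile and infant retinas, -1.32 between senile and mature and -0.33 between mature and infant. Of 3433 genes tested in rods, 1.34% had every senile retina below every infant retina, a share from which nothing is read, since RPGRIP1 was picked for this fall. Within the libraries whose headers name Cell Ranger 6.1.2 the senile minus infant difference was -1.44 (1 senile against 3 infant retinas). Within those of version 7.0.1 it was -1.62 (3 against 2). Both differences come from the values by which the gene was picked and give no separate support. In nuclei thinned to 1000 UMIs, an RPGRIP1 UMI was found in 30.2% ± 3.34 of infant, 29.4% ± 5.81 of mature and 13.5% ± 3.99 of senile rods, and without thinning in 57.3%, 59.8% and 24.1%. Thinning left out 6, 4 and 43 rods. BCs, which should lack the gene, held a UMI in 0.386%, 0.359% and 0.615% of thinned nuclei, with median depths that averaged 2423, 2960 and 1946 UMIs.

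Other RNA moved with stage in these rods. The summed rod markers were at 4030 ± 859 CPM in infant, 4351 ± 807 CPM in mature and 3039 ± 357 CPM in senile rods, and RPGRIP1 per 100 rod marker UMIs was 9.46 ± 1.72, 7.33 ± 1.77 and 4.25 ± 0.82. The summed cone markers in rods were at 386 ± 152, 472 ± 170 and 669 ± 167 CPM, while SAG was at 3666 ± 1034, 3226 ± 400 and 3366 ± 948 CPM. The median depth of a rod averaged 2532, 3220 and 1960 UMIs. The part of rod identity, of RNA from other cells and of depth in the RPGRIP1 values was not tested beyond these ratios. The antisense feature RPGRIP1-AS-1 was at 50.0 ± 17.1, 41.0 ± 12.8 and 39.5 ± 21.7 CPM in the same rods and had too few UMIs for a stage test.

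**Figure D4:**
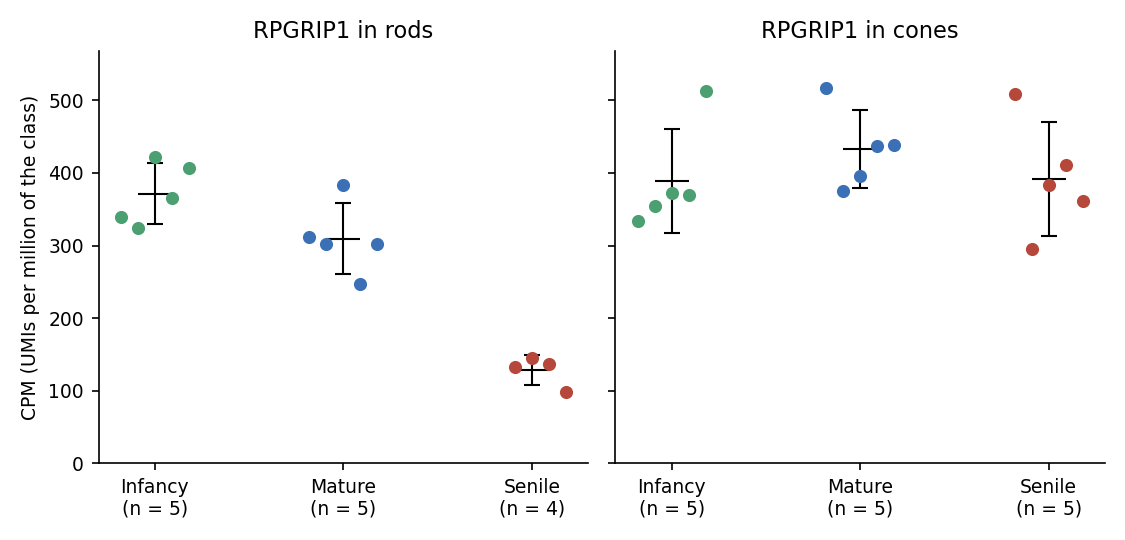
RPGRIP1 in rods (left) and cones (right) by stage, in CPM of the class; each point is 1 retina, horizontal bars are means and error bars are SD. The 4 senile values in rods, 97.9 to 146 CPM, lie below all others, and the cones of the 3 stages overlap.

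In cones RPGRIP1 was tested between stages. The infant values were 334, 354, 373, 369 and 514 CPM, with a mean of 389 ± 71.5 CPM. Mature cones held 517, 376, 395, 438 and 439 CPM (433 ± 54.3) and senile cones 509, 295, 383, 411 and 361 CPM (392 ± 78.3). The stages overlapped throughout. The senile minus infant difference was -0.07 ± 0.14 (log2, SE; edgeR with stage and program version, adjusted p = 0.944), and an RPGRIP1 UMI was found in 30.9%, 33.2% and 32.2% of cones thinned to 1000 UMIs.

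The other members were compared between stages in rods and cones by the same test. In rods, 0 of the 5 tested genes other than RPGRIP1 passed at an adjusted p of 0.05 in any contrast, where 0.845%, 0.35% and 0.0583% of 3433 genes passed for senile minus infant, mature minus infant and senile minus mature. By DESeq2 the number was also 0, and at an unadjusted p of 0.05 it was 1, RPGRIP1L in senile minus infant retinas, where 488 of 3433 genes passed unadjusted. RPGRIP1L was at 95.4 ± 8.95 CPM in infant, 95.7 ± 15.2 CPM in mature and 69.4 ± 33.1 CPM in senile rods, a senile minus infant difference of -0.67 ± 0.30 (edgeR, log2, adjusted p = 0.316). Its senile values of 66.0, 116, 54.8 and 40.3 CPM overlapped the infant range of 81.0 to 104 CPM.

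CEP290 was at 151 ± 12.3, 130 ± 43.4 and 137 ± 11.7 CPM in infant, mature and senile rods, a senile minus infant difference of -0.30 ± 0.25 (edgeR, adjusted p = 0.690). PROM1 was at 557 ± 132, 553 ± 110 and 544 ± 78.9 CPM, a difference of -0.14 ± 0.19 (0.849). The PROM1 values of all stages overlapped. RPGR was at 50.4 ± 27.5, 42.9 ± 21.1 and 51.4 CPM (34.2 to 87.3 CPM in senile retinas; 0.716), and within the program versions its senile minus infant difference was 0.69 for version 6.1.2 and -0.73 for 7.0.1, so that no direction is given. RP1L1, at 41.7 ± 19.1, 46.4 ± 17.4 and 25.4 ± 13.3 CPM, had 1 to 7 UMIs in each senile retina and was not tested. EYSli2 was at 774 ± 256, 520 ± 106 and 588 ± 142 CPM, with a mature minus infant difference of -0.69 ± 0.21 that missed the threshold (0.261).

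In cones, 0 of 7 genes passed in any contrast by edgeR or by DESeq2, where 1.76%, 1.32% and 0.0% of 15409 genes passed. At an unadjusted p of 0.05 there was 1, RP1L1 in senile minus mature retinas, where 1264 of 15409 genes passed unadjusted. RP1L1 was at 78.0 ± 29.2, 90.8 ± 18.0 and 68.9 ± 25.1 CPM, a senile minus mature difference of -0.47 ± 0.22 (log2, adjusted p = 0.605). EYS was at 2464 ± 864 CPM in infant, 2175 ± 685 CPM in mature and 2805 CPM (1871 to 3879) in senile cones, with a senile minus infant difference of 0.25 ± 0.22 (0.825), and PROM1 at 1002 ± 81.3, 986 ± 106 and 1075 ± 210 CPM (0.05 ± 0.12, 0.952). The SE of the 7 senile minus infant differences lay between 0.10 for RPGRIP1L and 0.22 for EYS, smaller than in rods, where it lay between 0.19 for PROM1 and 0.87 for EYS.

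**Figure D5:**
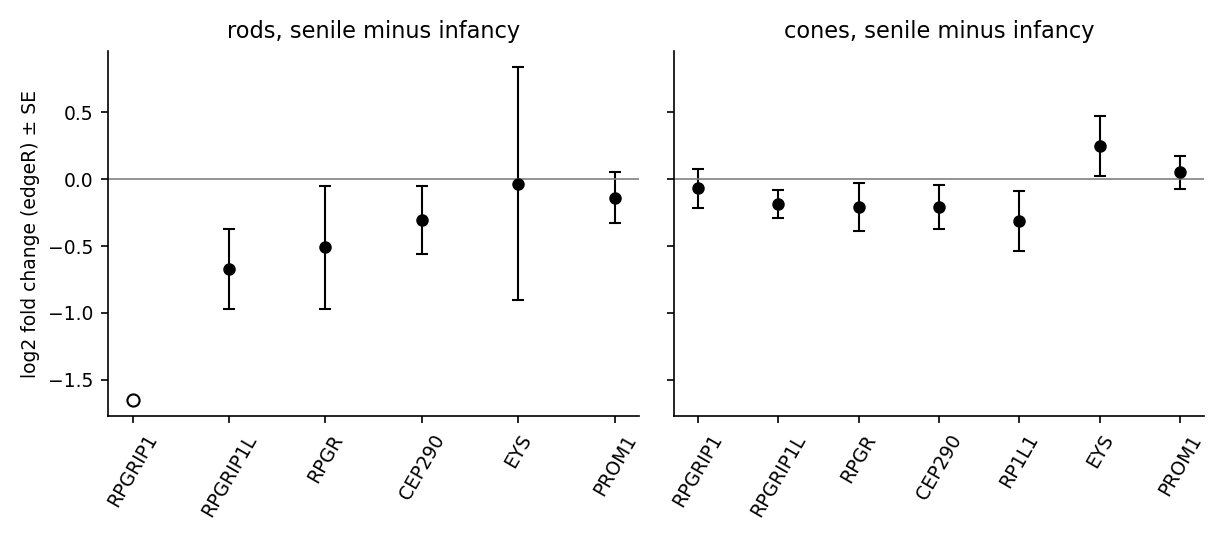
Senile minus infant log2 fold change in rods (left) and cones (right) from edgeR; filled points are estimates, bars are SE, the grey line marks no difference and the open circle is RPGRIP1 in rods, shown without an error because the gene was picked on it. RPGRIP1 in rods lies at -1.65 and every gene in cones lies between -0.31 and 0.25.

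In BCs, ACs, RGCs and Müller cells 0 of the tested members passed in any stage contrast by edgeR, where 1.4%, 0.821%, 1.1% and 0.85% of genes passed for senile minus infant retinas. The shares were 0.956%, 0.488%, 0.747% and 0.729% for mature minus infant retinas, and 0.0%, 0.0%, 0.0074% and 0.00868% for senile minus mature retinas. By DESeq2, EYS and PROM1 passed in BCs. At an unadjusted p of 0.05, 6 values passed for senile minus infant retinas, EYS and PROM1 in BCs and in Müller cells and RPGRIP1 and EYS in RGCs. For mature minus infant retinas 2 passed, RPGRIP1 in RGCs and RPGR in Müller cells, and for senile minus mature retinas 1, EYS in BCs. The same unadjusted threshold was passed by 1453 of 14220 genes in BCs, 951 of 11527 in Müller cells and 903 of 13514 in RGCs for senile minus infant retinas, by 1176 of 13514 in RGCs and 1139 of 11527 in Müller cells for mature minus infant retinas, and by 1485 of 14220 in BCs for senile minus mature retinas. EYS in BCs was at 17.4, 11.8, 7.01, 8.28 and 8.90 CPM in infant and at 41.3, 267, 91.7, 44.5 and 2.54 CPM in senile retinas, a difference of 2.85 ± 0.78 (edgeR, log2, adjusted p = 0.107). PROM1 in BCs was 1.77 ± 0.55 higher (0.192). Senile 5 was the low retina, and without it EYS in BCs passed with 3.18 ± 0.63 (0.0136) and RPGRIP1 in RGCs with 2.29 ± 0.50 (0.0280). In these fits 238 of 14437 genes passed in BCs and 145 of 13601 in RGCs.

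The cone markers moved with these values. Their sum in BCs was 86.1 to 227 CPM in infant and 226 to 735 CPM in senile retinas, highest in Senile 2 and Senile 3, which were also highest for EYS. In Müller cells it was 150 ± 65.4 CPM in infant and 548 ± 264 CPM in senile retinas, in RGCs 101 ± 36.0 and 231 ± 108 CPM. The part of cone RNA in the EYS, PROM1 and RPGRIP1 counts of these classes was not tested.

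A wider set of 111 ciliary genes in 7 lists was measured beside the 9 genes, of which 94 had a UMI in a gated nucleus. Between rods and cones 70 could be tested and 36 passed, 13 higher and 23 lower in rods; over all genes tested 20.6% were higher and 22.3% lower. Of 16 tested genes of the transition zone and the RPGR complex, 0 were higher and 5 lower in rods, with a median of -0.17 on the log2 scale. Of 15 tested genes of intraflagellar transport, 2 were higher and 5 lower, and of 14 of the BBSome and lipidated protein traffic 3 were higher and 4 lower. Of 10 centriole and basal body genes 2 were higher and 3 lower, of 5 axoneme genes and kinases 2 were higher and 2 lower, and of 5 Usher protein genes 1 was higher and 2 lower. All 5 tested genes of the outer segment discs passed, 3 higher and 2 lower, with a median of 0.59.

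The genes of these lists named here were chosen for a change past the test in the same direction in 14 of 14 retinas. That agreement is therefore part of the choice and not a result. LCA5, which encodes the ciliary protein lebercilin, was at 184 ± 46.7 CPM in rods and 503 ± 77.2 CPM in cones, 1.54 ± 0.09 lower (edgeR, log2, adjusted p = 4.89e-14). BBS9, a BBSome subunit, was 1.48 ± 0.13 lower in rods, AHI1 of the transition zone 0.80 ± 0.07 lower, IFT57 of the transport trains 0.90 ± 0.10 lower and CEP89 of the basal body 0.83 ± 0.19 lower. KIF19, a kinesin that shortens ciliary microtubules, was at 2.20 ± 3.74 CPM in rods and 92.6 ± 35.6 CPM in cones, 5.19 ± 0.27 lower. CILK1, a ciliary kinase, was 1.45 ± 0.11 lower.

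Other genes were higher in rods. TTC21B, a transport protein, was 1.12 ± 0.11 higher and BBS2, another BBSome subunit, 0.98 ± 0.14 higher. DCX, a microtubule-binding protein listed with the axoneme, was 1.48 ± 0.11 higher. The disc rim genes ROM1 and PRPH2 were 1.89 ± 0.14 and 1.33 ± 0.10 higher, and ABCA4, the retinoid transporter of the discs, was 0.59 ± 0.07 higher. Ciliary genes thus went in both directions between rods and cones.

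By stage, 0 of 82 tested genes of the wider set passed in cones and 0 of 42 in rods in any contrast, beside 1.76% and 0.845% of all genes for senile minus infant retinas. In BCs, ACs, RGCs and Müller cells there was 1 call, beside 0.85% of all genes in Müller cells, where it was found: CLRN1, which encodes clarin-1 of the Usher proteins. It was at 304 ± 45.8 CPM in infant and 156 ± 31.8 CPM in senile Müller cells, a difference of -1.06 ± 0.22 (edgeR, log2, adjusted p = 0.0271). The median senile minus infant difference over the 7 genes tested in cones was -0.19, and over all genes in cones -0.01. In rods the medians of the transition zone list and of the disc list were -0.24 and -0.21, beside -0.01 for all genes. The medians of the other lists in rods are not given here, so no shared direction is read from these values.

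The genes with levels most like those of RPGRIP1 were sought over 134 sums of a class in a retina, among 5474 genes with a single copy that reached 20 CPM in rods or cones. The highest Pearson r on the log2(CPM + 1) scale was that of IMPG1 (0.92), a proteoglycan of the matrix around photoreceptors, followed by TMEM244 (0.90), BEST3 (0.90), IMPG2 (0.90), its relative in the same matrix, and MPP4 (0.89), a scaffold protein of photoreceptors. These sums share libraries, retinas and depth, and no p is given.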

How the data were processed

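Per the labels, single-nucleus RNA-seq libraries were made from 15 frozen TS retinas, each a separate sample. The authors deposited raw UMI counts per feature and nucleus from a single cell 3' kit, aligned to a TS genome. The submitters' processing notes name Cell Ranger 5.0.1 for 7 libraries, whose headers say 6.1.2, and 7.0.1 for 8. Counting of introns is not given in the sources used here. Nuclei entered with a gene number above 200 and below 6000 and a mitochondrial share below 5%, and were assigned to classes by marker scores, a rule set after the files were seen. Nuclei with a second class were left out and no doublet caller was run. Counts were summed per retina and class (at least 10 nuclei) and tested with edgeR 4.0.16 (R 4.3.3; TMM, filterByExpr, quasi-likelihood, two-sided, Benjamini-Hochberg at 0.05), with the retina as a block between classes and with the program version between stages. Sex, read from the study's figure, splits the retinas in nearly the same way as the version, so the version term cannot be told apart from sex; with sex in its place 0 members passed and RPGRIP1 in rods was -1.62. CPM scales counts to the class sum, and log2 levels carry a pseudocount of 1. Alternatives included DESeq2 1.42.0, no filter on low counts, thinned sums, strict gates and Leiden clusters. The fits were tested on simulated data. The members and lists were chosen with earlier results of these data known. All members are named, and from each list up to 3 genes per direction with the largest change in the same direction in every retina, or without overlap between stages; some genes this rule or the marker lists hold are not reported here. P-values between stages measure the spread between retinas. Those of rods against cones and of the sign-flip test measure the spread of differences within retinas. For photoreceptors against the other classes, the spread is that of the class sums after the retina block, pooled over all classes. That fit counts several sums of each retina, so its p-values do not rest on the number of retinas alone. Intervals and floors (3 counts) cover counting error only.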

Additional observations from a re-analysis of the deposited data

Results flagged for a closer look

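Of 42 groups of 4 or 5 retinas examined for a value far from the others, 3 held one, and chance gives about 1 in 20 groups. RP1L1 in the rods of Infancy 4 was at 75.6 CPM, while the other infant retinas lay between 29.5 and 37.0 CPM. RPGRIP1 in the cones of Infancy 5 was at 514 CPM, while the others lay between 334 and 373 CPM. RPGR in the cones of Senile 5 was at 43.1 CPM, while the others lay between 21.3 and 27.6 CPM. Senile 5 was also the highest senile retina for RPGR in ACs (59.6 CPM), RGCs (47.0), Müller cells (35.4), BCs and microglia. In rods (34.5 CPM), HCs and astrocytes it was not.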

How the results depend on the processing

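Without the filter on low counts 7508 genes differed between rods and cones and 21625 between cones and the other classes, and with sums thinned to equal totals 609 and 1005, with 900 for rods against the other classes. The thinned sums left 2 members past the test between rods and cones, 3 for cones and 1 for rods against the other classes, where 4, 7 and 5 passed (RPGRIP1 not counted where its rods enter). By stage in cones, DESeq2, no filter and thinning gave 430, 887 and 148 genes for senile minus infant, 393, 787 and 108 for mature minus infant and 57, 290 and 1 for senile minus mature retinas. In rods the same settings gave 59, 203 and 9, then 29, 136 and 4, then 5, 92 and 0, stage without program version gave 13 and 7 for the contrasts with infant retinas, and classes from clusters gave 1 for senile minus mature. In BCs, ACs, RGCs and Müller cells together, 2 member values passed by DESeq2 (EYS and PROM1 in BCs, senile minus infant, where 359 of 14188 genes passed) and 11 without the filter. Of the 11, 7 were senile minus infant values, EYS and PROM1 in BCs, EYS and RPGRIP1 in RGCs and EYS, PROM1 and RPGRIP1 in Müller cells, where 831 of 52365, 400 of 47714 and 528 of 47095 genes passed, and the others were EYS in BCs and Müller cells in the other contrasts. RPGRIP1 in senile minus infant rods was -1.91 without the filter and -1.25 with classes from clusters. RPGRIP1L between rods and cones turned to -0.32 without the filter, and CEP290 to 0.0686 with classes from clusters. The cause was not tested.

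Leaving out 1 retina at a time gave 3548 to 4102 genes between rods and cones (4 members throughout), 11311 to 11812 for cones (7) and 7306 to 7875 for rods (5 to 6) against the other classes. By stage it gave 203 to 305, 136 to 222 and 0 to 2 genes in cones, with 0 members. In rods it gave 7 (without Senile 4) to 41 (without Mature 4), with 9 without Infancy 4, 11 without Infancy 5, 16 without Mature 1 or Senile 5, 18 without Mature 2 and 19 without Infancy 1 or Infancy 3, 5 (without Mature 1 or Mature 2) to 22 (without Mature 4) and 0 (without Senile 5) to 6 (without Senile 2), with 0 members. In the other classes 0 to 2 members passed, both without Senile 5, where 238 of 14437 genes passed in BCs and 145 of 13601 in RGCs. RPGRIP1 in rods ranged from -1.72 to -1.51, over the same values by which the gene was picked.

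The replicate numbers were not taken as pairs, since the labels name no shared batch. Of 15 same-numbered pairs of retinas, 12 correlated above 0.1 (mean 0.20, -0.30 to 0.43), and of 60 other pairs 24 did (mean -0.05, -0.54 to 0.64). Same-numbered retinas were thus more alike on average. They mostly share a program version, and the part of the version in this was not tested. Own numbers were best in 5 of 30 cases, each a choice among the 5 retinas of another stage. With a replicate block 213, 156 and 0 genes passed in cones and 26, 11 and 2 in rods, with 0 members, and RPGRIP1 in rods was -1.65. Senile rods, with 60635 to 173723 UMIs per retina, limit the precision.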
